A study of Homo sapiens with 12 samples.

Results

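The genes described here are 10 genes of the Notch pathway, measured by RNA-seq in KELLY cells, an established human neuroblastoma line. They are the receptors NOTCH1, NOTCH2 and NOTCH3, the ligands DLL1, DLL3 and JAG1, and HES1, HES6, HEY1 and NRARP, which are targets or relatives of targets of the pathway. They were taken by gene symbol and are 10 of the 55771 gene rows of the deposited table. The set was chosen with earlier results of these data known, so the shares called below are not those of a blind choice. All 12 libraries were made from cells transfected with a morpholino, an uncharged antisense oligonucleotide, held on a DNA strand called a leash so that a lipid carrier could bring it into the cells. The dose was 50 nM and RNA was taken 48 h later, in medium with 4% serum after plating for 24 h in 10% serum. The groups were the BPS2 oligonucleotide, the BPS1 oligonucleotide and a control oligonucleotide, with 4 libraries each, so the comparisons are with a control oligonucleotide and not with untreated cells. The series text names the question as what changes across the transcriptome when the long NEAT1 transcript, NEAT1_2, and the nuclear bodies built on it, paraspeckles, are raised. Each value is a normalized count, a read count scaled so that libraries can be compared.

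Notch is a signal between touching cells. A ligand on one cell binds the receptor on its neighbour, proteases then cut the receptor, and the freed inner part enters the nucleus, where it joins the DNA-binding protein RBPJ and switches on targets such as HES1, HEY1 and NRARP. HES1 and HEY1 are repressors that hold back neuronal genes, NRARP feeds back on the pathway by limiting the freed receptor, and in the sympathetic lineage from which neuroblastoma arises Notch is known for its part in the choice between neuronal and more mesenchymal states.

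The libraries held 29.6 to 33.3 M normalized counts, and 1 read was worth 0.940 to 1.09 of them. NEAT1, given as 1 row for the gene, lay at 3912 to 4853 in BPS2, 1414 to 2380 in BPS1 and 6494 to 7074 in control, and this row cannot show NEAT1_2 alone. The outlying libraries were BPS1 replicate 4 and control replicate 1, whose log2 values deviated from the gene medians with an SD of 0.594 and 0.471, against 0.377 to 0.425 in the other 10 libraries; they are called below the libraries that stand apart. In BPS1 replicate 4 values rose by 0.19 on the log2 scale for each 10% of transcript GC content, and in control replicate 1 by 0.06. The markers of noradrenergic neuroblastoma cells summed to 235737 to 251199 in BPS2, 198654 to 255695 in BPS1 and 264344 to 316380 in control, and 0 of these 11 markers averaged under 10 in any group. Whether replicate libraries stand for separate cultures is not in the labels, so the p-values reflect the spread among these libraries, part of which may be technical.

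HES1 and NRARP are both known as targets of the pathway. HES1 was higher with both oligonucleotides, while NRARP did not pass the test described below. The 250 bases before their RefSeq start sites (GRCh38.p14) are shown side by side. A search for the core of the RBPJ motif, GTGNGAA, on both strands found 2 matches before HES1, set in capitals, and none before NRARP. The HES1 matches lie from −85 to −79, GTGGGAA on the strand of the gene, and from −62 to −56, where the letters on the strand of the gene are TTCACAC and the motif reads on the other strand, counted back from −1 as the last base before the start. The HES1 window is chr3:194135898-194136147 on the plus strand and the NRARP window is chr9:137302272-137302521 on the minus strand, each printed 5′ to 3′ along its gene.
HES1: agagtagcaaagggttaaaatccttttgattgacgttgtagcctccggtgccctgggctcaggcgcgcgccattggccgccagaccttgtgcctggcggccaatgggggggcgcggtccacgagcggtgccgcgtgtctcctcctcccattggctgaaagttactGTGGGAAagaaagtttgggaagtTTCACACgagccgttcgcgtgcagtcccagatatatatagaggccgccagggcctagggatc
NRARP: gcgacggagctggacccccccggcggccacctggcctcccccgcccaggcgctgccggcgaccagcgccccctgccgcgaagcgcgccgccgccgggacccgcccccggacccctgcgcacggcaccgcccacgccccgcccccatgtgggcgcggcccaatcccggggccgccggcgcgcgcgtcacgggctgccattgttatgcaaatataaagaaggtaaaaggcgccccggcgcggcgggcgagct
Of 35116 RefSeq promoter windows of this length, 11.6% held at least 1 match and 0.906% held 2 or more. RefSeq windows were found for 7 of the 10 genes, and NOTCH1, NOTCH2, NOTCH3, JAG1 and HES6 also had 0 matches. The search used 1 window per gene. The HES6 window, 238240039 to 238240288 on chromosome 2, lies inside the span of the gene given below. Sequence before the outer start of HES6 was therefore not searched. None was found for DLL1, DLL3 or HEY1, so HEY1, which also differed between groups, was not searched. A match is a run of letters, not a measured site. Sequence outside these windows was not searched, and a part of the motif in the HES1 and NRARP results was not tested.

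Of the 9 Notch genes that reached the level needed for testing, HES1 and HEY1 were higher in BPS1 than in control, HES1 was higher in BPS2 than in control, and HEY1 was lower in BPS2 than in BPS1. NRARP, HES6, the receptors and the ligands did not pass the test in any comparison. The tests were limma fits over all 20454 genes tested, two-sided, with Benjamini-Hochberg adjusted p under 0.05. In BPS1 against control 2 of 9 were called, both higher, where 8.6% of all genes were called, 4.29% higher and 4.32% lower. In BPS2 against control 1 of 9 was called, higher, where 1.21% of all genes were, 0.821% higher and 0.386% lower. In BPS2 against BPS1 1 of 9 was called, lower, where 3.93% of all genes were, 2.3% higher and 1.63% lower. The median log2 fold change of the 9 genes was 0.31 in BPS1 against control, 0.19 in BPS2 against control and −0.14 in BPS2 against BPS1, beside medians of −0.00, 0.00 and −0.00 over all genes tested. Both comparisons with control share the control libraries. In bulk RNA, fewer cells that express a gene and less RNA per cell cannot be told apart.

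**Figure D1:**
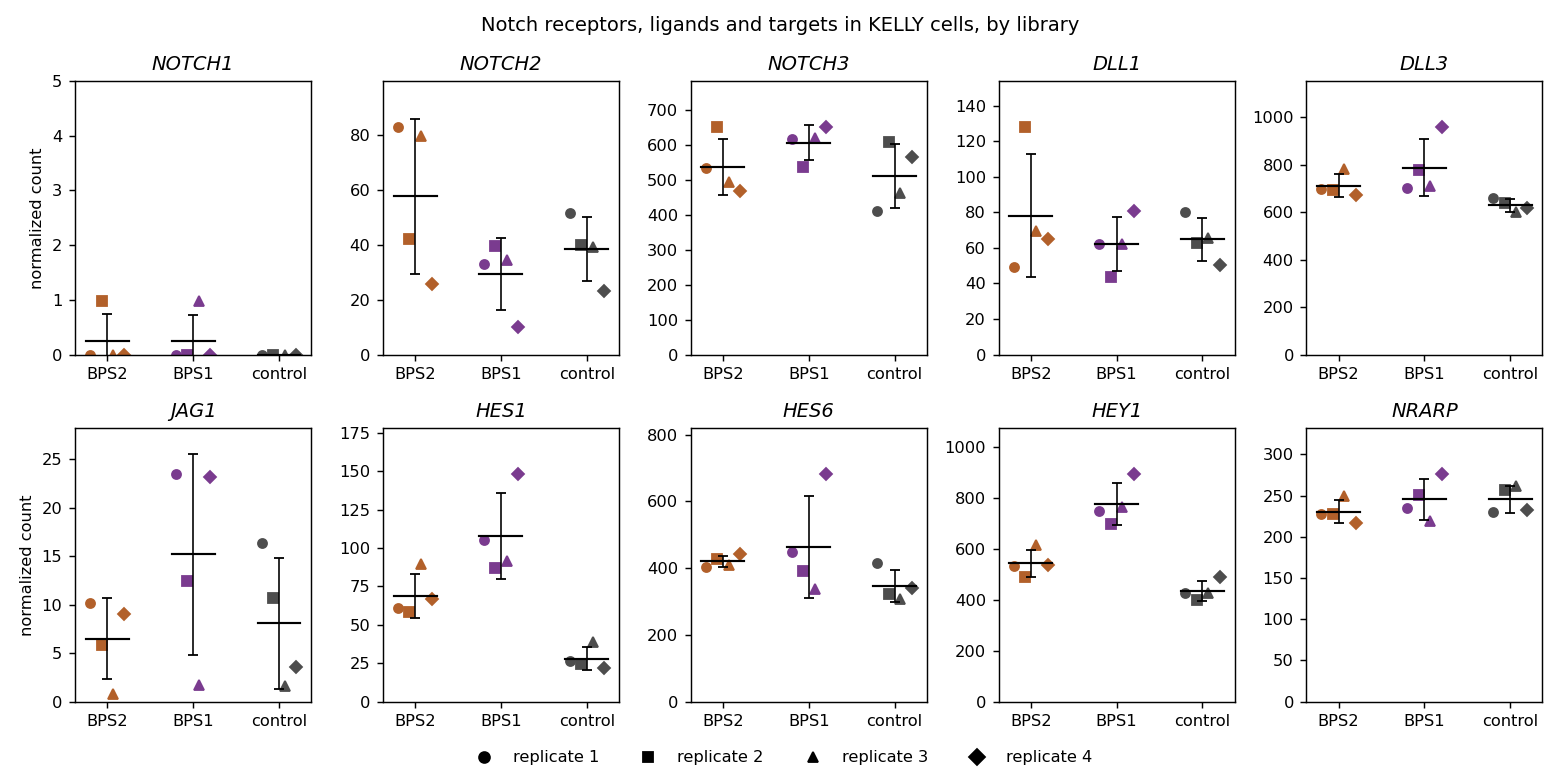
Normalized counts (vertical axes, from 0, differing between panels) of the 10 Notch genes in each of the 12 libraries, with the group mean (line) and SD (bar), for BPS2, BPS1 and control (n = 4 each; marker shapes give the replicate number). HES1 averages 68.9 in BPS2, 108 in BPS1 and 28.1 in control, and NRARP averages 231 in BPS2, 245 in BPS1 and 245 in control.

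The levels of the genes relative to one another were compared per kilobase of the longest coding transcript in GENCODE release 29. In BPS2 the order of mean normalized counts per kilobase was DLL3 (305), HES6 (263), HEY1 (237), NRARP (130), NOTCH3 (62.0), HES1 (43.7), DLL1 (24.6), NOTCH2 (5.06), JAG1 (1.09) and NOTCH1 (0.0264). In BPS1 HEY1 and DLL3 led at 338 each, followed by HES6 at 290, NRARP at 139, NOTCH3 at 70.1, HES1 at 68.4, DLL1 at 19.6, NOTCH2 at 2.58 and JAG1 at 2.56. In control DLL3 was at 270, HES6 at 217, HEY1 at 190, NRARP at 139, NOTCH3 at 59.1, DLL1 at 20.4, HES1 at 17.8, NOTCH2 at 3.38 and JAG1 at 1.36. HEY1 stood 3rd in BPS2, 1st in BPS1 and 3rd in control, and HES1 stood 6th in BPS2, 6th in BPS1 and 7th in control. Library ranges of neighbours overlapped for HES6 and HEY1, NOTCH3 and HES1, and HES1 and DLL1 in BPS2, for HEY1 and DLL3, DLL3 and HES6, NOTCH3 and HES1, and NOTCH2 and JAG1 in BPS1, and for DLL3 and HES6, HES6 and HEY1, DLL1 and HES1, and NOTCH2 and JAG1 in control. Other neighbours in the order did not overlap. DLL3, HES6, HEY1 and NRARP thus stood above all 3 receptors in every group on this scale.

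Among the receptors, NOTCH1 (ENSG00000148400, chromosome 9, 136494433 to 136545786, minus strand, GRCh38 as are all positions of genes here) was at or near 0. Its normalized count was 0.984, 1 read, in BPS2 replicate 2 and 0.973, 1 read, in BPS1 replicate 3, and 0 in the other 10 libraries. All values were under 3 reads, the limit that a count of 0 allows (2.82 to 3.28 normalized counts per library, counting error only), so no difference in NOTCH1 was detectable at this depth. NOTCH1 was not tested.

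NOTCH3 (ENSG00000074181, chromosome 19, 15159038 to 15200981, minus strand) was the receptor of this set with most normalized counts per kilobase. Its normalized counts were 535, 652, 495 and 468 in BPS2, 618, 537, 620 and 654 in BPS1, and 410, 609, 462 and 566 in control, in the order of the replicate numbers, as for every gene below. The groups overlapped. Its log2 fold change was 0.08 ± 0.14 (SE) in BPS2 against control (limma adjusted p = 0.891), 0.26 ± 0.14 in BPS1 against control (adjusted p = 0.292) and −0.18 ± 0.14 in BPS2 against BPS1 (adjusted p = 0.557). The interval in BPS1, from −0.04 to 0.56, leaves room for a rise of up to 1.47-fold.

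NOTCH2 (ENSG00000134250, chromosome 1, 119911553 to 120069626, minus strand) varied widely within groups. It held 83.0, 42.0, 79.7 and 25.7 normalized counts in BPS2, 33.1, 39.6, 34.5 and 10.2 in BPS1, and 51.5, 40.1, 39.2 and 23.0 in control. Replicate 4 was the lowest library of every group, and the groups overlapped. The largest difference was in BPS2 against BPS1, at 0.95 on the log2 scale with a 95% interval from −0.01 to 1.92 (limma adjusted p = 0.299). The human genome holds partial copies of NOTCH2, the NOTCH2NL genes, and how reads were shared among them is not given in the sources used here, so these values are uncertain.

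The ligand DLL3 (ENSG00000090932, chromosome 19, 39498895 to 39508481, plus strand) is a divergent Delta-like protein. In mouse it works mainly inside the cell that makes it and inhibits Notch there. Among the ligands of this set it had most normalized counts per kilobase, and ligands outside the set were not ranked. Its normalized counts were 697, 695, 784 and 673 in BPS2, 702, 779, 711 and 961 in BPS1, and 662, 639, 599 and 618 in control. Every BPS2 and every BPS1 library was above every control library. The log2 fold change was 0.18 ± 0.10 in BPS2 against control (limma adjusted p = 0.563) and 0.31 ± 0.10 in BPS1 against control (adjusted p = 0.0786), so neither passed over all genes. Groups without overlap were common: 9.65% of all genes tested in BPS2 against control and 14.3% in BPS1 against control, beside 2 and 3 of the 9 Notch genes. The 961 of BPS1 replicate 4, one of the libraries that stand apart, was the highest DLL3 value; without that library and control replicate 1 the log2 fold change in BPS1 was 0.24 (limma adjusted p = 0.0633; 0.0413 to 0.180 over all alternatives).

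DLL1 and JAG1 activate the receptor of a neighbouring cell. DLL1 (ENSG00000198719, chromosome 6, 170282206 to 170306565, minus strand) held 49.5, 128, 69.8 and 65.1 normalized counts in BPS2, 62.0, 43.7, 62.4 and 80.8 in BPS1, and 80.0, 62.7, 65.8 and 50.6 in control. JAG1 (ENSG00000101384, chromosome 20, 10637684 to 10673999, minus strand) held 10.2, 5.83, 0.846 and 9.05 in BPS2, 23.5, 12.4, 1.70 and 23.1 in BPS1, and 16.4, 10.7, 1.60 and 3.62 in control. The groups overlapped for both, and replicate 3 was the lowest JAG1 library in every group, at under 3 reads. For JAG1 in BPS1 against control the log2 fold change of 0.78 carried a 95% interval from −0.98 to 2.54 (limma adjusted p = 0.630), so these data say little about it in either direction. For DLL1 the log2 fold changes were 0.19 in BPS2 against control, −0.07 in BPS1 against control and 0.27 in BPS2 against BPS1, with adjusted p of 0.846, 0.913 and 0.694. Both genes overlap other annotated genes, DLL1 among them FAM120B on the other strand, and whether counting used the strand is not given in the sources used here.

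Of the targets, HES1, a basic helix-loop-helix repressor, was higher with both oligonucleotides (ENSG00000114315, chromosome 3, 194136145 to 194138732, plus strand). Its normalized counts were 60.9, 58.2, 89.6 and 66.9 in BPS2, 105, 87.0, 91.3 and 148 in BPS1, and 26.5, 24.8, 38.9 and 22.2 in control. All 8 treated libraries were above the highest control library. BPS2 averaged 68.9 ± 14.3 and control 28.1 ± 7.40 (SD, n = 4 each), 2.42-fold higher with a 95% interval from 1.75 to 3.35 (log2 1.28 ± 0.22, limma adjusted p = 0.0118). BPS1 averaged 108 ± 28.0, 3.74-fold above control with an interval from 2.70 to 5.18 (log2 1.90 ± 0.22, limma adjusted p = 1.94e-04). BPS2 was 0.63 lower than BPS1 on the log2 scale, with an interval of the log2 fold change from −1.10 to −0.16, and its highest library, 89.6, overlapped BPS1. That difference did not pass (limma adjusted p = 0.147), which does not show that the oligonucleotides acted alike.

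HEY1, a related repressor, was higher in BPS1 and separated the oligonucleotides (ENSG00000164683, chromosome 8, 79764010 to 79767863, minus strand). It held 534, 490, 617 and 537 normalized counts in BPS2, 749, 698, 765 and 896 in BPS1, and 426, 399, 426 and 492 in control. Every BPS1 library was above every BPS2 and every control library. BPS2 and control overlapped by 1 library, the 490 of BPS2 replicate 2 against the 492 of control replicate 4. In BPS2 against BPS1, groups without overlap were 1 of the 9 Notch genes and 11.9% of all genes tested. BPS1 averaged 777 ± 84.3 and control 436 ± 39.6 (SD, n = 4 each), 1.78-fold higher with an interval from 1.52 to 2.08 (log2 0.83 ± 0.10, limma adjusted p = 3.56e-04). BPS2 averaged 544 ± 52.9, with a log2 fold change of 0.32 ± 0.10 against control that did not pass (limma adjusted p = 0.210; 95% interval 0.10 to 0.54). BPS2 against BPS1 was −0.51 ± 0.10 on the log2 scale, a fold change of 0.702 (limma adjusted p = 0.0146). This last call was lost without BPS2 replicate 2 (log2 −0.46, adjusted p = 0.0551; 0.00321 to 0.0551 over all alternatives).

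**Figure D2:**
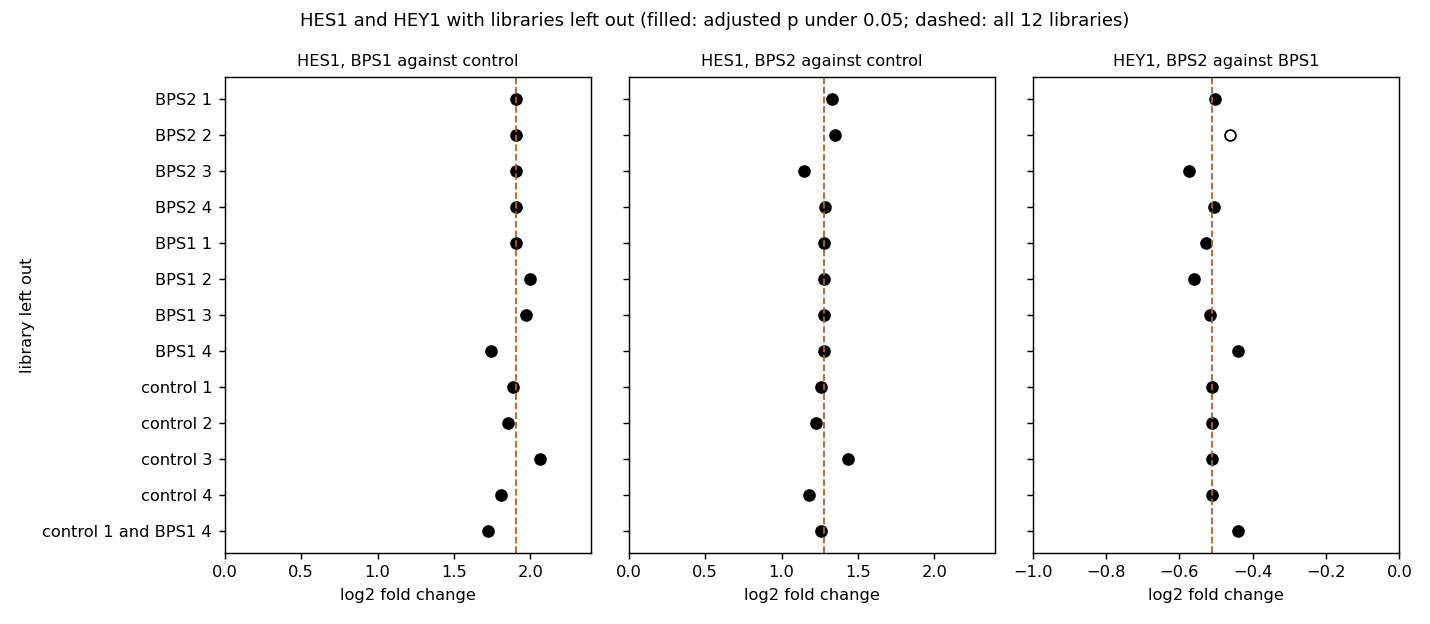
Log2 fold changes (horizontal axes) of HES1 in BPS1 against control and in BPS2 against control, and of HEY1 in BPS2 against BPS1, after leaving out the library named at the left; filled points have a limma adjusted p under 0.05 and the dashed line is the value with all 12 libraries. HES1 stays between 1.72 and 2.07 in BPS1 and between 1.14 and 1.44 in BPS2, and HEY1 without BPS2 replicate 2 is the 1 open point.

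BPS1 replicate 4 was the highest BPS1 library for HES1, HEY1 and 5 further members (NOTCH3, DLL1, DLL3, HES6 and NRARP), and the lowest for NOTCH2. With that library and control replicate 1 left out, HES1 was still called, at a log2 fold change of 1.26 in BPS2 against control (limma adjusted p = 0.00571) and 1.72 in BPS1 against control (adjusted p = 5.38e-04). HEY1 likewise was called at 0.75 in BPS1 against control (adjusted p = 6.71e-04) and −0.44 in BPS2 against BPS1 (adjusted p = 0.00946). Removing each library's trend with transcript GC content left HES1 at 1.27 and 1.90 in BPS2 and BPS1 against control, and HEY1 at 0.84 in BPS1 against control. HES1 and HEY1 transcripts hold 49.9% and 47.3% GC, near the median of 47.9% over the genes tested. The trend was taken out around the mean GC content, so it could hardly move these 2 genes. A part of GC content in their results is therefore not tested by this removal.

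HES6, a relative of HES1 known to oppose it and to favour neuronal differentiation, did not pass (ENSG00000144485, chromosome 2, 238238267 to 238240662, minus strand). Its normalized counts were 405, 426, 410 and 441 in BPS2, 447, 391, 337 and 683 in BPS1, and 416, 322, 307 and 342 in control. Control replicate 1 lay within the BPS2 range and the other 3 control libraries lay below it. The 683 of BPS1 replicate 4 was far above the other BPS1 libraries, and the SD was 16.7 in BPS2, 152 in BPS1 and 48.3 in control. The log2 fold change was 0.29 ± 0.18 in BPS2 against control (limma adjusted p = 0.597) and 0.38 ± 0.18 in BPS1 against control (adjusted p = 0.228). With both libraries that stand apart left out, BPS2 against control was called, at 0.38 (limma adjusted p = 0.0338; 0.0338 to 0.821 over all alternatives). HES6 transcripts have the highest GC content of the 10 genes, 68.4%. An unnamed gene, AC012485.1, overlaps HES6 on the other strand.

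NRARP, the Notch-regulated ankyrin repeat protein that limits the freed receptor, stayed within a narrow range (ENSG00000198435, chromosome 9, 137300482 to 137302251, minus strand). Its normalized counts were 228, 227, 250 and 217 in BPS2, 235, 251, 219 and 277 in BPS1, and 230, 257, 262 and 233 in control. The groups overlapped. The values were whole numbers of reads in each of the 12 libraries, and the 230 reads of BPS2 replicate 1, for example, carry a 95% exact Poisson interval of 201 to 262, for counting error only. The log2 fold change was −0.09 in BPS2 against control, with a 95% interval from −0.30 to 0.12 (limma adjusted p = 0.809), and −0.00 in BPS1 against control, from −0.22 to 0.21 (adjusted p = 0.990). The upper bounds, 1.09-fold and 1.16-fold, lie below the HES1 intervals of both comparisons.

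**Figure D3:**
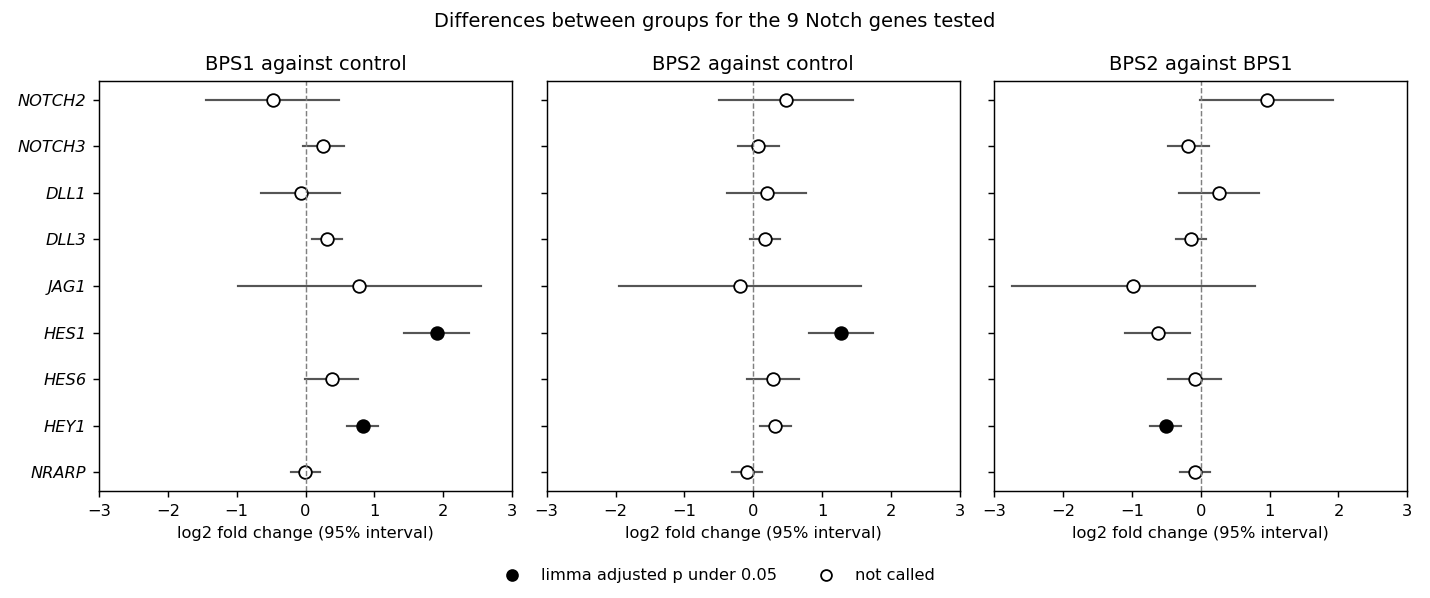
Log2 fold changes with 95% intervals (horizontal axes) of the 9 Notch genes tested, in 3 panels, for BPS1 against control, for BPS2 against control, and for BPS2 against BPS1 (12 libraries, 4 per group); filled points have a limma adjusted p under 0.05. HES1 stands at 1.90 and 1.28 in the comparisons with control, HEY1 at 0.83 in BPS1 against control and −0.51 in BPS2 against BPS1, and the interval of JAG1 is the widest.

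Beyond these 10, 60 further pathway genes were followed by role, and 54 of them were tested. In BPS1 against control 5 were called higher and 2 lower, 13.0% of the 54 beside 8.6% of all genes, and their median log2 fold change was 0.03. The 7 calls became 12 without BPS1 replicate 4, and 2 to 4 without any 1 of replicates 2 to 4 of control or BPS2 or of BPS1 replicates 1 to 3. In BPS2 against control and in BPS2 against BPS1 limma called 0 of 54. At an unadjusted p under 0.05 there were 3 higher and 4 lower in BPS2 against control, 13.0% beside 11.4% of all genes, and 4 higher and 6 lower in BPS2 against BPS1, 18.5% beside 17.1%. Without BPS1 replicate 4 limma called 6 of the 54 in BPS2 against BPS1, and without control replicate 1, 2 or 4 it called 1.

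NEURL1B, a ubiquitin ligase that drives the uptake of ligands, was lower in BPS1. It held 1146, 1089, 1036 and 1064 normalized counts in BPS2, 980, 983, 1008 and 982 in BPS1, and 1233, 1294, 1264 and 1234 in control. The 3 groups did not overlap. In BPS1 against control 18.5% of the 54 further genes had groups without overlap, beside 14.3% of all genes tested. The shares were 11.1% beside 9.65% in BPS2 against control and 16.7% beside 11.9% in BPS2 against BPS1. The log2 fold change in BPS1 against control was −0.35 (limma adjusted p = 0.00415), and it was called under all 24 alternatives. In BPS2 against control it was −0.21 (limma adjusted p = 0.158), and it was called there with library weights (−0.23, adjusted p = 0.0160) and without both libraries that stand apart (−0.22, adjusted p = 0.0290; 0.0160 to 0.384 over all alternatives).

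The ligand JAG2 averaged 1162 in BPS2, 1187 in BPS1 and 998 in control, with a log2 fold change of 0.25 in BPS1 against control (limma adjusted p = 0.0370) and 0.22 in BPS2 against control (adjusted p = 0.183). In BPS2 against control JAG2 was called with library weights (0.21, limma adjusted p = 0.0355) and without both libraries that stand apart (0.19, adjusted p = 0.0435; 0.0355 to 0.508 over all alternatives). DLK1, a Delta-like protein that lacks the domain of ligands that activate Notch, averaged 31663 in BPS2, 25262 in BPS1 and 33037 in control (−0.40 in BPS1 against control, adjusted p = 0.0480). Its BPS1 libraries held 23025, 22462, 22512 and 33047, so that BPS1 replicate 4 lay within the control range of 29654 to 37462. The JAG2 call was lost without any 1 of the control or BPS2 libraries or of BPS1 replicates 1 and 2 (limma adjusted p of 0.0515 to 0.0937), and the DLK1 call without any 1 library other than BPS1 replicate 4 (0.0515 to 0.130). Without that library DLK1 in BPS1 against control was at −0.54 (adjusted p = 4.41e-04; 1.13e-04 to 0.131 over all alternatives), and it was also called in BPS2 against BPS1 (log2 0.48, adjusted p = 0.00142; 7.25e-05 to 0.300 over all alternatives).

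NUMBL, a relative of NUMB, which promotes removal of the receptor from the membrane, averaged 719 in BPS2, 851 in BPS1 and 605 in control (log2 0.48 in BPS1 against control, limma adjusted p = 0.0218). The nuclear corepressor SPEN, which silences RBPJ targets in the absence of signal, averaged 5853 in BPS2, 6755 in BPS1 and 5667 in control (log2 0.25 in BPS1 against control, adjusted p = 0.0373). For both genes every BPS1 library was above every control library, in a comparison where 14.3% of all genes tested had groups without overlap. The NUMBL call was lost without control replicate 2 or 4 or BPS1 replicate 3 (limma adjusted p of 0.0576 to 0.0673). SPEN lost its call without control replicate 1, 3 or 4, BPS2 replicate 2 or 3, or BPS1 replicate 1, 2 or 3 (0.0555 to 0.113). JAG2 was not called in BPS1 once the GC trend was removed (0.17, limma adjusted p = 0.237). Of the 24 alternatives, the call in BPS1 against control held under 20 for NUMBL, 12 for SPEN, 10 for JAG2 and 9 for DLK1. With only the groups compared, each of these calls was lost (limma adjusted p of 0.0551 to 0.132).

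**Figure D4:**
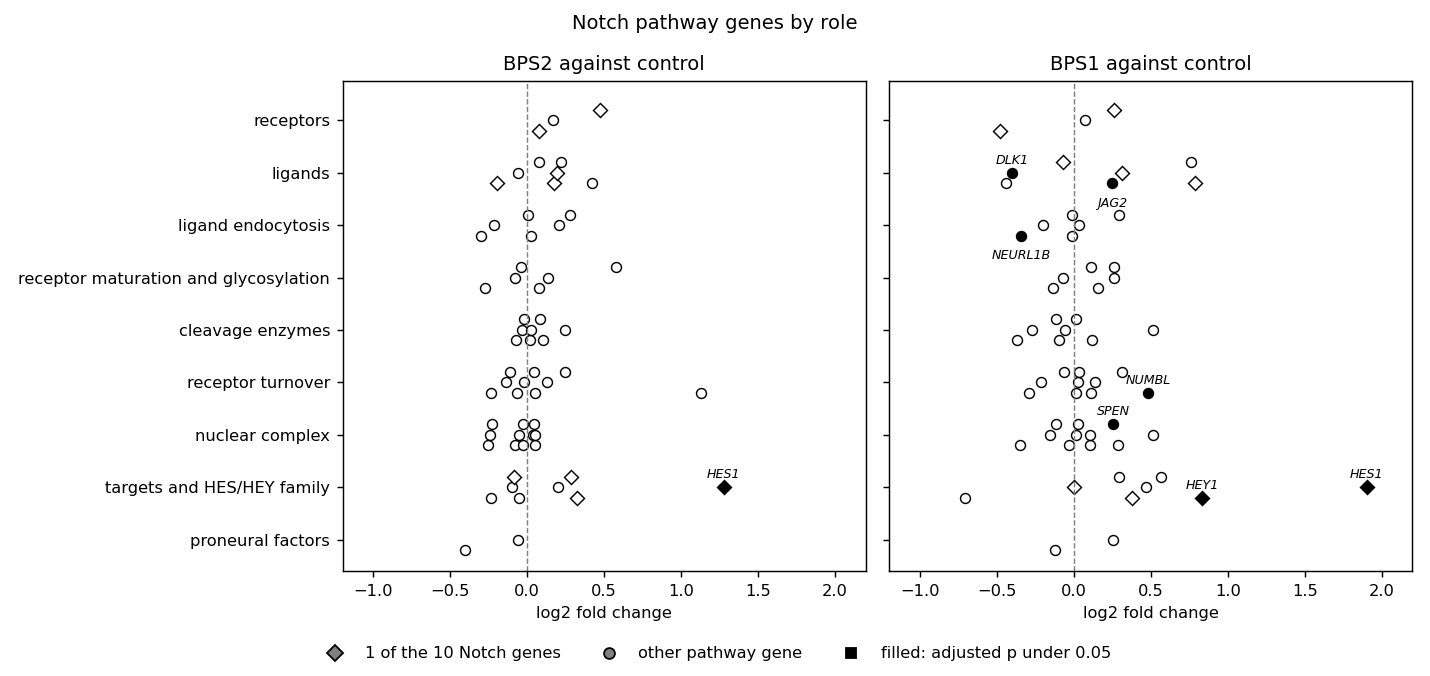
Log2 fold changes (horizontal axes) of the pathway genes tested and reported here, in rows by role, in BPS2 against control and in BPS1 against control; diamonds are the 9 tested of the 10 Notch genes and filled, named points have a limma adjusted p under 0.05. HES1 is the 1 filled point in BPS2 against control, at 1.28, and 7 points are filled in BPS1 against control.

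The remaining core genes gave no call. NOTCH4, the other receptor, averaged 114 in BPS2, 107 in BPS1 and 103 in control. Of the HES and HEY genes outside the 10, HEYL averaged 596 in BPS2, 634 in BPS1 and 520 in control, with a log2 fold change of 0.29 in BPS1 against control (limma adjusted p = 0.0565). HES2, HES7 and HEY2 averaged between 7.60 (HES2 in BPS2) and 19.9 (HES7 in control) in the 3 groups, HES5 and HES4 averaged 0 in BPS2 and BPS1 and 0.262 in control, and the ligand DLL4 averaged 3.95 in BPS2, 4.10 in BPS1 and 5.05 in control. RBPJ, on which target activation rests, averaged 3573 in BPS2, 3782 in BPS1 and 3713 in control, with log2 fold changes of −0.05 and 0.03 in BPS2 and BPS1 against control. Of the 8 genes of the enzymes that cut the receptor, 0 were called by limma in any comparison. At an unadjusted p under 0.05 the counts of these 8 were 0 higher and 0 lower in BPS2 against control, where 11.4% of all genes passed, 1 higher and 2 lower in BPS1 against control (37.5% beside 22.5% of all genes), and 2 higher and 0 lower in BPS2 against BPS1 (25.0% beside 17.1%).

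Markers of cell state were counted beside the Notch targets. Of 11 noradrenergic neuroblastoma markers, 2 were lower in BPS2 than in control (ISL1 and STMN2), 18.2% called beside 1.21% of all genes. In BPS1 6 were lower, among them HAND2, DBH and STMN2, and 1 was higher, 63.6% called beside 8.6% of all genes. Of 10 mesenchymal neuroblastoma markers tested, 0 were called in BPS2 against control by limma (2 higher and 0 lower at an unadjusted p under 0.05, 20% beside 11.4% of all genes). In BPS1 FN1 and SNAI2 were higher and CD44 lower, 30.0% called beside 8.6% of all genes. The summed normalized count of the 11 mesenchymal markers was 7274 to 8278 in BPS2, 7014 to 8980 in BPS1 and 6996 to 7519 in control. Schwann cell markers summed to 95.2 to 123 in BPS2, 86.7 to 128 in BPS1 and 93.5 to 145 in control, and their defining factor SOX10 averaged 0.371 in BPS2, 0.129 in BPS1 and 0 in control. Endothelial markers summed to 100 to 158 in BPS2, 126 to 237 in BPS1 and 112 to 160 in control, and the receptor KDR averaged 0 in BPS2, 0 in BPS1 and 1.15 in control. Fibroblast markers summed to 3199 to 3864 in BPS2, 3548 to 4339 in BPS1 and 3134 to 4361 in control, and 1, COL1A1, was higher in BPS2 than in control (16.7% of the 6 called beside 1.21% of all genes). The part of these markers in the HES1 and HEY1 results was not tested.

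The genes whose pattern over the 12 libraries was most like that of HES1, by the root mean square difference of log2 values centred on the control mean among 13973 genes, were ETV4 (0.249), DKK1 (0.309) and PRKG1-AS1 (0.341). ETV4, an ETS transcription factor, averaged 393 in BPS2, 559 in BPS1 and 170 in control. DKK1, a secreted Wnt inhibitor, averaged 2693 in BPS2, 3209 in BPS1 and 907 in control. PRKG1-AS1 averaged 46.3 in BPS2, 87.9 in BPS1 and 23.8 in control. For DLL3 the nearest patterns included RRP12 (0.0559) and IMPDH1 (0.0607). IMPDH1 averaged 5300 in BPS2, 5981 in BPS1 and 4724 in control, and like DLL3 both had their highest value in BPS1 replicate 4. These likenesses are descriptions over libraries that share a group and a library scale.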

How the data were processed

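Total RNA depleted of ribosomal RNA was sequenced as single 100-base reads with a strand-specific kit, per the labels' protocols. The deposited values are a normalized signal, 1 value per gene and library, and Salmon 0.8.2, FastQC 0.11.7, DESeq2 and the GRCh38 build are named in the submitters' processing notes. The sources used here give neither the annotation release nor how transcripts became genes. BPS2 columns were matched by sample title, since another field names these samples KPAS, and the third BPS1 column is spelled BSP1.

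Low values came in steps worth 1 read, which gave 29.1 to 31.8 M reads per library as an estimate of depth, where the labels state a mean of 25 M. Among the members, NOTCH1 and NRARP were in whole reads (within 0.01 of a read) in all 12 libraries. The rows of the other members were not in whole reads in all 12 libraries. The reason is not given in the sources used here, so no count test was run.

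Values were taken as log2(value + 1), which understates changes of low genes. Genes with at least 10 in at least 4 libraries were kept. A single limma 3.58.1 model (R 4.3.3), with trended variances and the 3 groups as its factor, took in all 12 libraries. Genes were called where the p, two-sided and adjusted by Benjamini-Hochberg across every gene tested, was under 0.05. The fit was tested on simulated data first. Replicates differed from each other beyond sampling noise (chi-square per gene 1.75 to 13.1), so each was counted once.

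Genes named were the 10 members, those of the wider list that were called, its receptors, ligands and HES or HEY genes, RBPJ, markers, and for HES1 and DLL3 the 3 genes with a mean of at least 50 and the nearest pattern. The members and lists were chosen with earlier results of these data known. RBPJ was named after its values were seen. Some genes that these rules take are not reported here. Alternatives were pseudocounts of 0.5 and 5, no filter, a minimum of 50, scaling by quantiles or by median of ratios, robust variances, library weights, a replicate block, the groups compared alone, and the omission of each library. The omission of both libraries that stand apart and the removal of a GC trend were chosen after seeing the data. Positions come from GENCODE release 29, which may not be the authors' release, and promoters from RefSeq.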

Additional observations from a re-analysis of the deposited data

Results flagged for a closer look

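Of 44 groups of 4 libraries checked, over the members and the named called genes of the wider list, 4 had 1 library far from the other 3 by Dixon's test. Chance alone flags about 1 in 20 groups of normally spread values, a rate that does not hold for values near 0. NOTCH1 was at 0.984 normalized counts in BPS2 replicate 2 and at 0.973 in BPS1 replicate 3, 1 read each. The other 3 libraries of each group were at 0, a pattern that the test always flags. DLK1 was at 33047 in BPS1 replicate 4, above the 22462 to 23025 of the other BPS1 libraries. NEURL1B was at 1008 in BPS1 replicate 3, above 980 to 983. BPS1 replicate 4 also had the largest deviation from the gene medians, and its part in the DLK1 value was not tested.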

How the results depend on the processing

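HES1 in both comparisons with control and HEY1 in BPS1 against control were called under all 24 alternatives, with limma adjusted p up to 0.00236 and 0.0484 for HES1 in BPS1 and BPS2 and up to 0.00377 for HEY1. No scaling moved the median of all genes by more than 0.1 on the log2 scale. Scaling by quantiles or by median of ratios aligns the libraries, so this was largely set by design and says little about the normalization. The minimum of 50 gave no value for NOTCH2 and JAG1, and NOTCH1 was never tested. With leave-one-out the count of called members in BPS2 against BPS1 was 0 to 1, and in BPS2 against control it was 2 with library weights and 2 without both libraries that stand apart. The 7 called wider-list genes in BPS1 against control became 3 with no filter, 14 with library weights, 2 with the replicate block, 1 with only the groups compared, 12 without both libraries that stand apart and 2 to 12 with leave-one-out. The 0 in BPS2 against control became 6 with weights, 5 without both and 1 with the GC trend removed. The 0 in BPS2 against BPS1 became 2 with a minimum of 50, 1 with quantile scaling, 13 with weights, 1 with only the groups compared, 10 without both, 2 with the GC trend removed and 0 to 6 with leave-one-out. Over all genes, the replicate block called 118, 1067 and 447 in BPS2 against control, BPS1 against control and BPS2 against BPS1, weights called 1296, 3382 and 3626, and omitting both libraries 1910, 2774 and 3499, beside 247, 1760 and 803. Without BPS1 replicate 4, 536, 2372 and 1764 were called. Fits of only the groups compared called 907 in BPS1 against control. Omitting 1 library at a time gave 114 to 536 in BPS2 against control, 1102 to 2372 in BPS1 against control and 477 to 1764 in BPS2 against BPS1. Same-numbered libraries did not deviate together over all genes (correlations −0.272 to 0.103). The libraries that stand apart weigh on these correlations, so they cannot settle whether the numbers pair libraries.

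Uncalled values changed sign as follows. Without both libraries that stand apart, the log2 fold change was 0.10 for NOTCH2 in BPS1 against control, −0.025 for NOTCH3, 0.24 for JAG1 and 0.0048 for DLK1 in BPS2 against control, and 0.11 for HES6 and 0.0043 for JAG2 in BPS2 against BPS1. Library weights gave 0.11 for HES6 and 0.0023 for JAG2 in BPS2 against BPS1, and quantile scaling 0.023 for NRARP in BPS1 against control. With leave-one-out, BPS2 against control spanned −0.025 to 0.16 for NOTCH3, −0.071 to 0.38 for DLL1, −0.67 to 0.38 for JAG1 and −0.11 to 0.0048 for DLK1. BPS1 against control spanned −0.20 to 0.085 for DLL1 and −0.063 to 0.049 for NRARP, and BPS2 against BPS1 spanned −0.000125 to 0.45 for DLL1, −0.23 to 0.11 for HES6 and −0.062 to 0.0043 for JAG2. These signs turned without control replicate 1 (NOTCH3, DLL1 in BPS1, JAG1, DLK1), control replicate 2 (JAG1, NRARP), control replicate 3 (NRARP), BPS2 replicate 2 (NOTCH3, DLL1), BPS2 replicate 3 (JAG1), BPS1 replicate 2 (DLL1), BPS1 replicates 1 and 3 (NRARP) or BPS1 replicate 4 (HES6, JAG2). The cause of these changes was not tested, and fits that omit libraries also have fewer samples. DLL3 in BPS1 against control and HEY1 in BPS2 against control passed with library weights (0.24 and 0.34, limma adjusted p = 0.0413 and 0.0371).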
